A study of Zea mays with 6 samples.

Results

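The transcription factors labelled C2H2 in the expression table of maize ovaries were examined here. A row was taken as a member when its transcription factor family was exactly C2H2, which gave 63 of 25368 rows, 1 row per gene. RNA-seq was performed on ovaries of the maize inbred line Yu-A474, taken before pollination from plants grown without stress, with the glumes, lemma and palea removed. The *ifc* (*incompletely fused carpels*) ovaries, which keep an open stylar canal, are labelled IFC mutant, and the ovaries with closed carpels are labelled wild type (WT). By the study's methods, each *ifc* ovary grew beside a normal ovary on the same ear, so WT and *ifc* ovaries came from the same ears and are told apart by their phenotype. There were 3 libraries of each phenotype, 6 in all, and their reads were pooled by the authors into 1 FPKM (fragments per kilobase of exon, scaled to the number of mapped fragments) for *ifc* and 1 for WT. All values below are those pooled values. The deposited table holds no values per library, and values per library given elsewhere by the study were not used here, so no difference below was tested or set against the spread between ovaries. The depth behind each value is not given, because the table holds no counts. The study lists more mapped reads for each WT library than for the *ifc* library of the same replicate number.

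C2H2 zinc fingers are short protein folds in which a pair of cysteines and a pair of histidines hold a zinc ion, and most plant proteins with such fingers bind DNA. They include the INDETERMINATE DOMAIN (IDD) factors, many of which work together with GRAS proteins, and the ZAT and ZFP factors, many of which repress their targets through an EAR motif and co-repressors. Others act on chromatin, such as the HD2-type histone deacetylases and the REF6-type histone demethylases, and in *Arabidopsis* a few C2H2 factors set the identity and shape of floral organs.

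The 63 C2H2 rows lay on all 10 chromosomes of B73 RefGen_v3, from 3 rows on chromosome 9 to 11 on chromosome 1. Their gene spans ran from 0.545 to 26.4 kb with a median of 3.03 kb. The GO terms in the table gave metal ion binding to 61 of them, zinc ion binding to 50 and nucleic acid binding to 29. An *Arabidopsis* match was listed for 62 rows, and 36 of these matches had a symbol. By symbol, 12 rows were IDD, 2 were ZAT, 7 were ZFP, 2 were HD2 and 2 were WIP. The Polycomb and chromatin group held 5 rows, all matches of SUF4, REF6 or ELF6. A further 6 rows had other symbols, which left 27 with no symbol and 0 with an organ identity symbol. A row without a symbol was not sorted by its match, so the groups may miss genes of these kinds. A match names the closest *Arabidopsis* gene and does not by itself give the maize gene the same role. Rows of close copies may share reads that map to several places, so the division between them is uncertain.

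C2H2 genes were expressed at moderate levels in both phenotypes. Their median was 6.64 FPKM in *ifc* and 6.17 FPKM in WT, against 9.40 and 9.47 FPKM over all rows and 7.72 and 7.94 FPKM over the 1278 rows of other transcription factor families. At least 10 FPKM was reached by 23 members in *ifc* and 25 in WT, and 13 and 15 members lay under 2 FPKM. The summed level was 876 FPKM in *ifc* and 906 FPKM in WT. The 5 highest rows held 48.2% of that sum in *ifc* and 46.0% in WT, and GRMZM2G159032, an HD2-type histone deacetylase, alone held 22.2% and 20.7%.

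**Figure D1:**
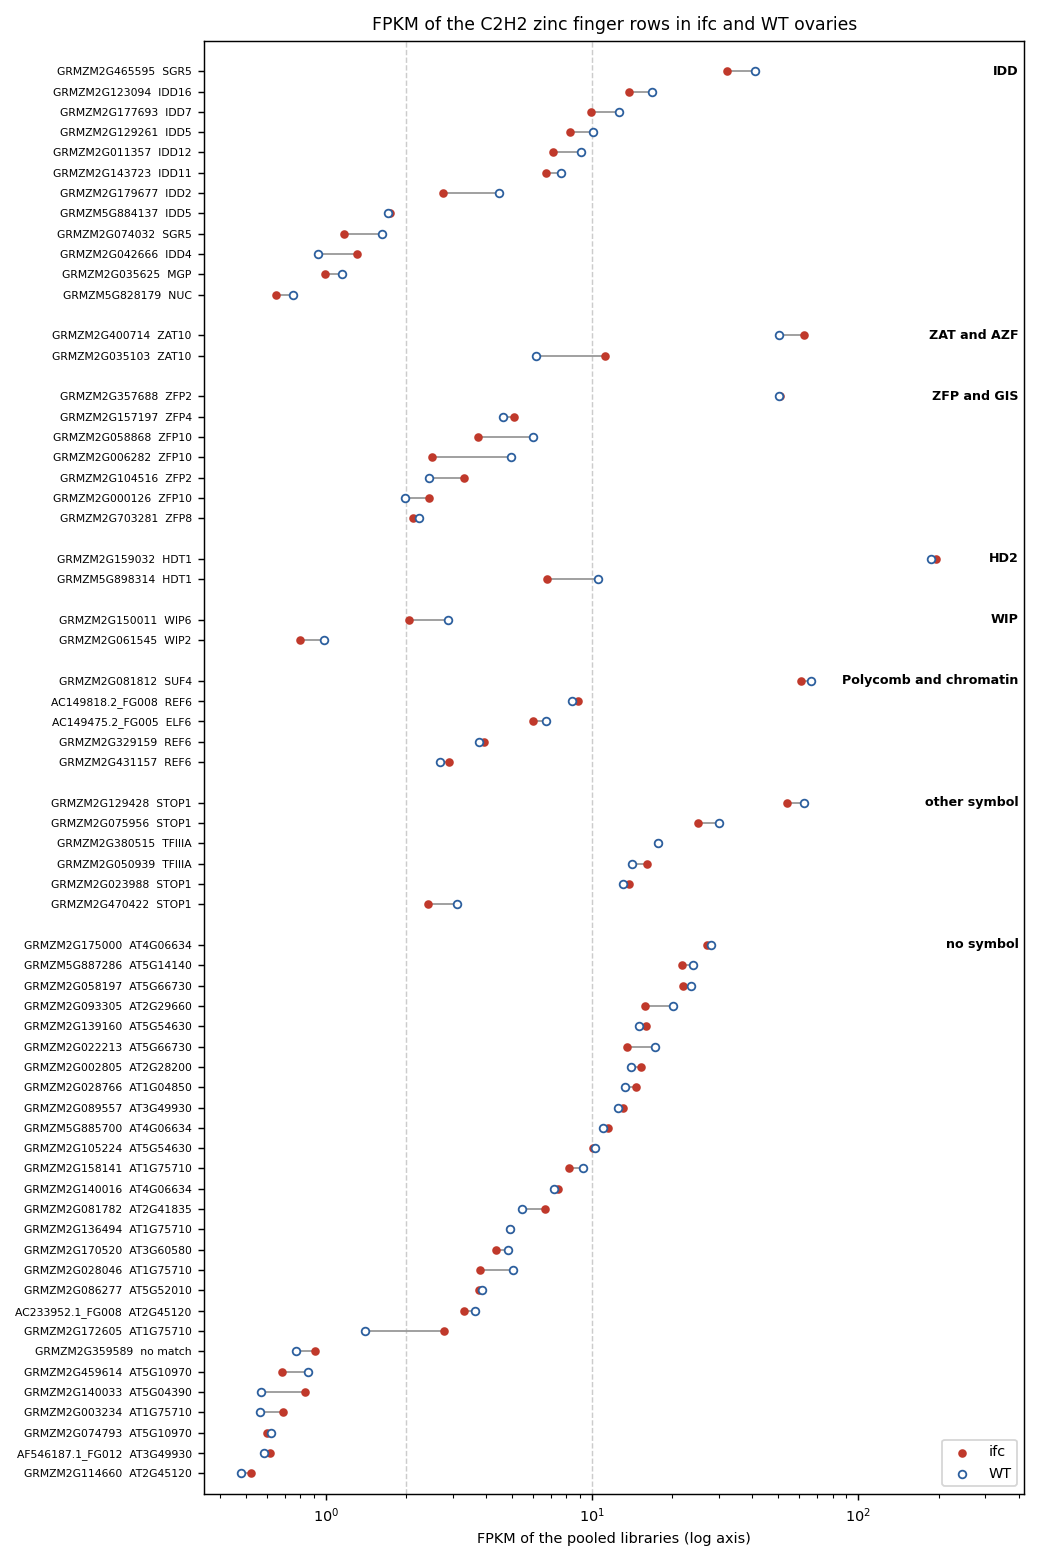
FPKM of the pooled libraries (log axis) for the 63 C2H2 rows, grouped by *Arabidopsis* match and ordered by level within a group, with filled red points for *ifc*, open blue points for WT, and dashed lines at 2 and 10 FPKM. The HD2 match GRMZM2G159032 stands highest at 195 and 188 FPKM, and in the IDD group the *ifc* point lies to the left of the WT point in 10 of 12 rows at the deposited scaling.

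Members were compared between phenotypes as the ratio of FPKM, and a row was counted as past a fold when it had more than 2 FPKM in *ifc* or WT, as 50 members did. Past 1.5-fold, 2 members were higher in *ifc* and 4 were lower. Over all 21093 rows above 2 FPKM, 4.13% were higher and 2.55% lower by this measure, against 4% and 8% of the 50 members and 6.44% and 3.94% of the 1041 rows of other families. The share of members higher was near that of all rows, and the lower share rests on 4 genes. The median log2 ratio, computed as log2 of FPKM + 1 in *ifc* over WT, was -0.055 for the 50 members, -0.021 over all rows and -0.053 over the other families, but when both phenotypes were set to the same total FPKM the C2H2 median was 0.86. That scaling moved every ratio by 1.13 on the log2 scale, since 1 row, GRMZM2G070931, held 55.6% of the WT total and was listed at 0 in *ifc*. Without that row the shift was -0.045. In tissue RNA of this kind, fewer cells of a type and less RNA per cell cannot be told apart.

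Among 23 families with enough rows to rank, C2H2 was the 11th from the lowest median, between Dof at -0.30 and NAC at 0.11. A lower threshold of 1.2-fold was chosen after the values were seen. Past it, 6 of the 50 members were higher (12%, against 14.1% of all rows) and 15 were lower (30%, against 14.7%). In other families 16.4% were higher and 21.5% lower. At any fold, 29 members were lower, which is 58%, against 54.1% of all rows, and 21 were higher, which is 42%, against 45.9%.

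**Figure D2:**
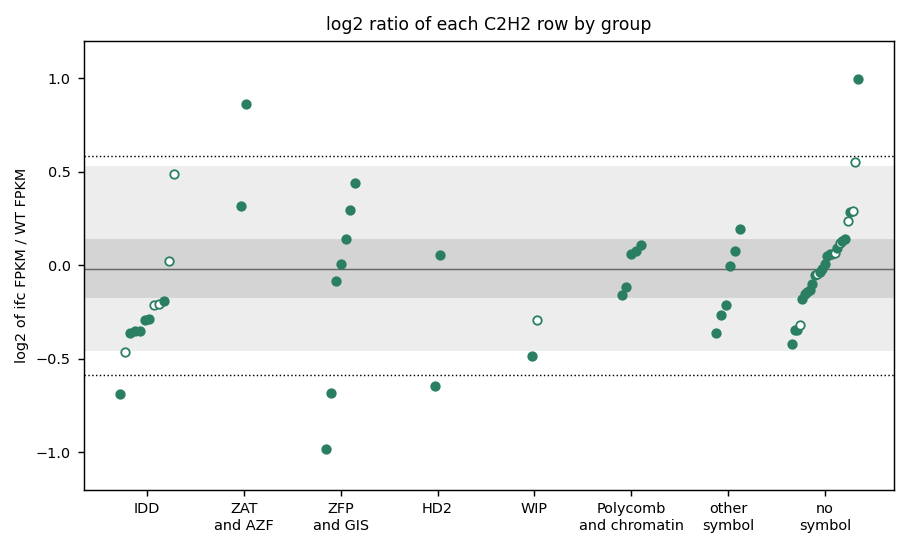
log2 of *ifc* FPKM over WT FPKM for each of the 63 C2H2 rows by group, with filled points for rows above 2 FPKM, open points for the others, dotted lines at 1.5-fold, and light and dark bands for the middle 90% and 50% of all rows above 2 FPKM (line: their median). The 6 members past 1.5-fold are spread over 5 groups, and 10 of the 12 IDD points lie under the dark band, whose lower edge is -0.17, at the deposited scaling (with the same total FPKM all points move up by 1.13).

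The largest ratio belonged to GRMZM2G172605 on chromosome 2 (112603051 to 112604929). It is matched to AT1G75710, for which no symbol is given. It had 2.79 FPKM in *ifc* and 1.40 FPKM in WT, 1.99-fold higher in *ifc*. The other member past 1.5-fold in that direction was GRMZM2G035103 on chromosome 5 (6321177 to 6322741), at 11.2 FPKM in *ifc* and 6.17 FPKM in WT, 1.82-fold higher. Its match is STZ/ZAT10, a transcriptional repressor that takes part in the salt, drought and cold responses of *Arabidopsis*.

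On the lower side stood a pair of ZFP10 matches, an IDD match and an HD2 match. GRMZM2G006282 (chromosome 5, 66364603 to 66365176) had 2.51 FPKM in *ifc* and 4.96 FPKM in WT, 1.98-fold lower. GRMZM2G058868 (chromosome 4, 609415 to 610872), also a ZFP10 match, had 3.73 and 5.99 FPKM, 1.60-fold lower. The IDD2 match GRMZM2G179677 (chromosome 1, 206161655 to 206168807) had 2.76 and 4.46 FPKM, 1.61-fold lower. IDD2 binds DELLA proteins, the repressors of gibberellin responses, in *Arabidopsis*. The HD2A match GRMZM5G898314 (chromosome 8, 162662840 to 162666204) had 6.75 FPKM in *ifc* and 10.5 FPKM in WT, 1.56-fold lower.

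Just outside the threshold were GRMZM2G150011, 1.40-fold lower, GRMZM2G104516, 1.35-fold higher, and GRMZM2G028046, 1.34-fold lower. All 6 members past 1.5-fold had a mean of 2 to 10 FPKM over both phenotypes. In that range lay 27 members, with a median ratio, taken as the larger value over the smaller, of 1.22 against 1.14 for all rows there. The 13 members with a mean under 2 FPKM had a median ratio of 1.18, against 1.28 for all rows there, and none of them was past 1.5-fold. The 13 members from 10 to 20 FPKM and the 10 members at 20 FPKM or more had a median ratio of 1.09 each, and none of them was past 1.28-fold. The members past 1.5-fold thus had neither the highest nor the lowest levels of the family.

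By the levels of 2 and 10 FPKM, 6 members fell into a different class in *ifc* than in WT. Such changes were not counted over all rows, so it is unknown whether this number is unusual. Near a limit, a small difference is enough to change the class. GRMZM2G177693, GRMZM2G129261 (both IDD matches) and GRMZM5G898314 were above 10 FPKM in WT and under it in *ifc*. GRMZM2G035103 lay on the other side, above 10 FPKM in *ifc* and under it in WT. GRMZM2G000126 and GRMZM2G172605 were under 2 FPKM in WT and above it in *ifc*.

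Among the C2H2 groups of at least 3 rows, the IDD matches had the highest share of rows in one direction. Of the 12 rows, 10 were lower in *ifc* and 2 were higher at the deposited scaling. Their median log2 ratio was -0.27, or -0.24 relative to the median of all rows. Setting both phenotypes to the same total FPKM moved the median to 0.66, and the same total without GRMZM2G070931 gave -0.30. At any fold 51.3% of all rows were lower and 48.7% higher. All 7 IDD rows above 2 FPKM were lower, 6 of them past 1.2-fold, and 1 past 1.5-fold. Over all rows above 2 FPKM, 54.1% were lower at any fold, 14.7% past 1.2-fold and 2.55% past 1.5-fold. In other families these shares were 59.8%, 21.5% and 3.94%. Summed over the group, IDD transcripts stood at 86.3 FPKM in *ifc* and 108 FPKM in WT, 1.25-fold lower. The 51 C2H2 rows without an IDD symbol were split evenly, with 25 lower and 26 higher, and a median of 0.0057. They include rows whose match is given no symbol, which were not sorted by their match.

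The highest IDD row was GRMZM2G465595 on chromosome 1 (31768896 to 31772988), matched to SGR5/IDD15, which acts in shoot gravitropism and in the control of auxin in *Arabidopsis*. It had 32.0 FPKM in *ifc* and 40.8 FPKM in WT, 1.28-fold lower. The IDD16 match GRMZM2G123094 (chromosome 1, 198504830 to 198508567) had 13.8 and 16.8 FPKM, 1.22-fold lower. In *Arabidopsis*, IDD16 acts beside IDD14 and IDD15 in the shape of lateral organs.

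The IDD7 match GRMZM2G177693 (chromosome 3, 219659123 to 219663410) stood at 9.86 FPKM in *ifc* and 12.7 FPKM in WT, also 1.28-fold lower. GRMZM2G011357 (chromosome 1, 239667868 to 239671192), matched to IDD12, had 7.12 and 9.10 FPKM, again 1.28-fold lower. RefSeq lists it under the synonym id1, the founding gene of the family, which promotes the transition to flowering in maize. The ratios of these rows and of the SGR5 match lay close together, although their levels ranged from 7.12 to 32.0 FPKM in *ifc*. The IDD11 match GRMZM2G143723 (chromosome 3, 5885567 to 5888467) had 6.71 and 7.67 FPKM, the smallest difference among the IDD rows above 2 FPKM at 1.14-fold lower.

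A pair of rows was matched to IDD5, and RefSeq lists them as Nkd1 and Nkd2, which in maize act redundantly in aleurone differentiation of the kernel. The Nkd1 row, GRMZM2G129261 (chromosome 2, 17718738 to 17726319), had 8.26 FPKM in *ifc* and 10.1 FPKM in WT, 1.22-fold lower. The Nkd2 row, GRMZM5G884137 (chromosome 10, 137525110 to 137530608), had 1.74 and 1.71 FPKM, a ratio of 1.01. The copy with less transcript in *ifc* is thus the more abundant Nkd1, while Nkd2 stood at almost equal values under 2 FPKM.

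The other IDD rows were under 2 FPKM in both phenotypes. GRMZM2G074032, the lesser SGR5 match, had 1.18 FPKM in *ifc* and 1.62 FPKM in WT. The IDD4 match GRMZM2G042666 went the other way, with 1.31 and 0.933 FPKM, 1.40-fold higher. Matches of MAGPIE (GRMZM2G035625) and NUTCRACKER (GRMZM5G828179), which in the *Arabidopsis* root act with the GRAS proteins SHORT-ROOT and SCARECROW, had 0.989 and 1.15 FPKM and 0.650 and 0.751 FPKM.

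**Figure D3:**
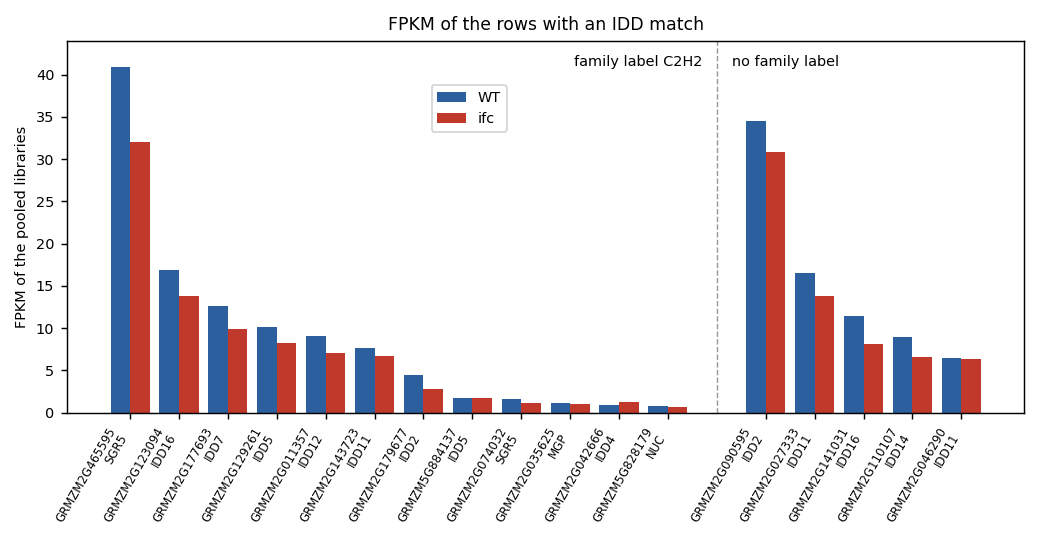
FPKM of the pooled libraries (linear axis from 0) of the 17 rows with an IDD symbol, in WT (blue) and *ifc* (red). The 12 rows labelled C2H2 are on the left and 5 rows without a family label on the right. The *ifc* bar is lower in 15 of 17 rows at the deposited scaling, and the exceptions, GRMZM5G884137 and GRMZM2G042666, are under 2 FPKM. With the same total FPKM the median log2 ratio of the 12 rows turns to 0.66, and without GRMZM2G070931 in the total it is -0.30.

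The family label left out 5 rows whose *Arabidopsis* match has an IDD symbol, and these were looked up after the labelled rows had been seen. All 5 were lower in *ifc*. The IDD2 match GRMZM2G090595 had 30.8 FPKM in *ifc* and 34.5 FPKM in WT, 1.12-fold lower. The IDD16 match GRMZM2G141031 had 8.11 and 11.4 FPKM, 1.40-fold lower, and the IDD14 match GRMZM2G110107 had 6.55 and 9.01 FPKM, 1.38-fold lower. The IDD11 matches GRMZM2G027333 (13.8 and 16.5 FPKM) and GRMZM2G046290 (6.40 and 6.49 FPKM) were 1.196-fold and 1.01-fold lower. The IDD14, IDD15 and IDD16 matches thus all had less than their WT level, at 1.22 to 1.40-fold.

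Over all 17 rows with an IDD symbol, 15 were lower, against 51.3% of all rows. All 12 above 2 FPKM were lower, against 54.1% of all rows above 2 FPKM. Of these 12, 8 were lower past 1.2-fold, against 14.7%. The median log2 ratio of the 17 rows was -0.26 and their summed levels were 152 FPKM in *ifc* and 186 FPKM in WT. Beside this, carpel and ovule markers were also mostly lower. Of 27 marker rows, which included matches of AGAMOUS, CRABS CLAW and the SEPALLATA genes, 24 were lower in *ifc*, against 51.3% of all rows, with a median of -0.11 and summed levels of 3351 and 3709 FPKM. Their levels ran from 0.465 to 695 FPKM in *ifc* and from 0.226 to 754 FPKM in WT, so no marker was listed at 0. Matches of CRABS CLAW, a carpel identity factor, had 119 and 164 FPKM (GRMZM2G088309) and 47.5 and 70.9 FPKM (GRMZM2G102218). The marker past 1.5-fold was the match of INNER NO OUTER, an ovule integument factor (GRMZM2G046829), with 2.50 and 4.51 FPKM. The 4 leaf and photosynthesis rows summed to 77.3 and 84.0 FPKM, and the pollen and anther rows, matches of AMS and MYB80, were under 1 FPKM in both phenotypes. The part of these cell types in the IDD values was not tested.

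The GRAS genes with which IDD factors work differed less than the IDD rows themselves by their median. None of the 13 rows matched to SHORT-ROOT, SCARECROW, SCL3 or the DELLA genes was past 1.5-fold in either direction, and of the 11 above 2 FPKM 1 was lower and 1 higher past 1.2-fold, against 14.7% and 14.1% of all rows. Their median log2 ratio was -0.033.

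By symbol, the ZAT group held 2 rows, both matched to ZAT10 and both higher in *ifc*. Rows without a symbol were not sorted into it, so this does not describe all possible ZAT matches. GRMZM2G400714 (chromosome 1, 279979291 to 279981056) was among the 5 highest C2H2 rows, with 62.4 FPKM in *ifc* and 50.2 FPKM in WT, 1.24-fold higher. With GRMZM2G035103 the summed ZAT10 level was 73.6 FPKM in *ifc* and 56.4 FPKM in WT, 1.31-fold higher. The higher copy held 84.8% of the sum in *ifc* and 89.1% in WT, so the lower copy took a larger share in *ifc*. Outside the family label, the matches of ZAT12, another factor of the stress responses of *Arabidopsis*, were 1.05-fold and 1.07-fold lower. They stood at 5.58 and 5.88 FPKM (GRMZM2G061626) and at 13.7 and 14.7 FPKM (GRMZM2G002815).

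The 15 rows matched to co-repressors that EAR-motif factors recruit, such as TOPLESS, had none past 1.5-fold, 1 lower past 1.2-fold, against 14.7% of all rows, and a median of -0.052. The ZAT10 matches were thus higher in *ifc* beside co-repressor rows that differed little.

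The 7 ZFP rows went in both directions, with 3 lower and 4 higher in *ifc*, and their median log2 ratio of 0.0083 turned to -0.036 once the totals were made equal without GRMZM2G070931. GRMZM2G357688 was the highest of them, with 50.8 FPKM in *ifc* and 50.5 FPKM in WT. Its match, ZFP2, delays the shedding of floral organs when overexpressed in *Arabidopsis*. The other ZFP2 match, GRMZM2G104516, had 3.29 and 2.43 FPKM, 1.35-fold higher.

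Besides the pair of ZFP10 matches past 1.5-fold, another, GRMZM2G000126, was 1.23-fold higher, at 2.43 FPKM in *ifc* and 1.98 FPKM in WT. The 3 ZFP10 matches together had 8.67 FPKM in *ifc* and 12.9 FPKM in WT, 1.49-fold lower, so the pair outweighed the other row in the sum. The ZFP4 match GRMZM2G157197 had 5.10 and 4.63 FPKM. The match of ZFP8, a trichome factor of *Arabidopsis*, GRMZM2G703281, had 2.12 and 2.25 FPKM. Neither was past 1.2-fold.

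HD2-type histone deacetylases are found in plants and were first purified from maize. GRMZM2G159032 (chromosome 6, 161426907 to 161429635), described in the table as histone deacetylase HDT3, was the highest C2H2 row at 195 FPKM in *ifc* and 188 FPKM in WT, 1.04-fold higher. The second row matched to the same *Arabidopsis* gene, GRMZM5G898314, was 1.56-fold lower, as given above. Since the first row held 96.7% of the sum in *ifc* and 94.7% in WT, the summed HD2 level differed little, at 202 and 198 FPKM. Outside the family label, GRMZM2G100146, with the same match, had 84.7 and 73.1 FPKM, 1.16-fold higher, and GRMZM2G057044 had 1.44 and 1.15 FPKM. The 9 rows matched to other histone deacetylases had none past 1.5-fold, 1 lower and 2 higher past 1.2-fold, against 14.7% and 14.1% of all rows, and a median of 0.11.

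No C2H2 row carried an organ identity symbol such as SUPERMAN, RABBIT EARS, KNUCKLES or JAGGED. Likeness to these proteins beyond the listed match was not examined. The study reports that the ZFP10 match GRMZM2G058868 resembles SUPERMAN in its zinc finger domain, and proposes it among its candidate genes for carpel fusion. It describes these candidates as more abundant in *ifc*, whereas the pooled values of GRMZM2G058868 were 1.60-fold lower in *ifc*. Outside the family label, 2 rows were matched to JAGGED, which shapes lateral organs of the flower in *Arabidopsis*, and both were under 2 FPKM. GRMZM2G067205 had 1.17 FPKM in *ifc* and 1.70 FPKM in WT, and GRMZM2G088112 had 0.198 and 0.495 FPKM. Both JAGGED matches were thus lower in *ifc*, at levels under the minimum used here.

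The WIP factors share a conserved zinc finger domain, and NTT/WIP2 is needed for the transmitting tract of the *Arabidopsis* pistil. The NTT match labelled C2H2, GRMZM2G061545, had 0.799 FPKM in *ifc* and 0.981 FPKM in WT. A second NTT match without the label, GRMZM2G134306, had 3.95 and 3.39 FPKM, 1.17-fold higher. The match of DOT5/WIP6, a vein patterning factor, GRMZM2G150011, had 2.06 and 2.88 FPKM, 1.40-fold lower.

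None of the 5 rows in the Polycomb and chromatin group, all matches of SUF4, REF6 or ELF6, was past 1.2-fold. The SUF4 match GRMZM2G081812 (chromosome 2), whose *Arabidopsis* counterpart activates the floral repressor FLC, was the second highest C2H2 row at 61.0 FPKM in *ifc* and 66.1 FPKM in WT. REF6, which removes methyl groups from lysine 27 of histone H3, had 3 matches labelled C2H2, all slightly higher in *ifc*. They stood at 8.83 and 8.38 FPKM (AC149818.2_FG008), 3.92 and 3.76 FPKM (GRMZM2G329159) and 2.90 and 2.69 FPKM (GRMZM2G431157). A REF6 match without the label, GRMZM2G339379, went the other way, at 2.83 and 3.06 FPKM, 1.08-fold lower. The match of the related demethylase ELF6, AC149475.2_FG005, had 5.997 and 6.70 FPKM and lay 62.3 kb from the first REF6 match on chromosome 9. These neighbours differed in opposite directions and by little.

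Among other chromatin genes, the 8 rows matched to genes of the second Polycomb repressive complex had none past 1.5-fold. Of these, 3 were higher and 0 lower past 1.2-fold, against 14.1% and 14.7% of all rows, and their median was 0.087. Matches of the Polycomb gene EMF2, which are not among these rows and lacked the family label, were both lower. They stood at 9.75 and 12.5 FPKM (GRMZM2G058158, 1.28-fold lower) and at 10.6 and 10.8 FPKM (GRMZM2G157422, 1.02-fold lower). Of 14 rows matched to microRNA processing genes, 1 was higher and 0 lower past 1.5-fold, against 4.13% and 2.55% of all rows. These genes work with the C2H2 protein SERRATE, whose matches here lacked the family label. The row past 1.5-fold, the AGO1 match GRMZM2G105250, had 6.41 FPKM in *ifc* and 4.10 FPKM in WT, 1.56-fold higher. Other AGO1 matches went in both directions, such as GRMZM2G461936 (24.2 and 21.3 FPKM, 1.14-fold higher) and GRMZM2G361518 (5.46 and 7.04 FPKM, 1.29-fold lower). The median of the list was 0.0027.

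STOP1, a factor needed for tolerance of acid soil and aluminium in *Arabidopsis*, had 4 matches. The highest, GRMZM2G129428 (chromosome 3), had 53.8 FPKM in *ifc* and 62.2 FPKM in WT, 1.16-fold lower. GRMZM2G075956 (chromosome 8) had 24.96 and 29.99 FPKM, 1.202-fold lower, and GRMZM2G470422 had 2.42 and 3.12 FPKM, 1.29-fold lower. GRMZM2G023988 differed from these, with 13.8 and 13.1 FPKM. Summed, STOP1 matches were 1.14-fold lower, at 94.9 and 108 FPKM. The matches of TFIIIA, which starts transcription of 5S ribosomal RNA genes, were at 17.7 FPKM in both phenotypes (GRMZM2G380515) and at 16.1 and 14.1 FPKM (GRMZM2G050939).

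The 27 rows without a symbol went in both directions, with 13 lower and 14 higher in *ifc* and a median log2 ratio of 0.0057, which became -0.032 once the totals were made equal without GRMZM2G070931. Their levels ran from 0.524 to 27.0 FPKM in *ifc* and from 0.482 to 28.0 FPKM in WT, and 20 of them were above 2 FPKM. The highest was GRMZM2G175000, with 27.0 and 28.0 FPKM. It is 1 of 3 rows matched to AT4G06634, and the other rows had 11.5 and 11.0 FPKM (GRMZM5G885700) and 7.47 and 7.22 FPKM (GRMZM2G140016, described in the table as Yin-yang1). None of these was past 1.2-fold.

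GRMZM5G887286, described in the table as a zinc finger protein, had 21.8 FPKM in *ifc* and 23.9 FPKM in WT. A pair of rows matched to AT5G66730 was lower in *ifc*, at 21.96 and 23.6 FPKM (GRMZM2G058197) and 13.5 and 17.2 FPKM (GRMZM2G022213), the latter 1.27-fold lower. GRMZM2G093305, matched to AT2G29660, was also 1.27-fold lower, at 15.8 and 20.1 FPKM. These were the largest ratios among the symbol-free rows above 10 FPKM.

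The match AT1G75710 had the most copies, 5 rows, which held the largest ratio of the family and also rows in the other direction. GRMZM2G158141 had 8.18 FPKM in *ifc* and 9.27 FPKM in WT, and GRMZM2G028046 had 3.78 and 5.05 FPKM, 1.34-fold lower. GRMZM2G136494 had 4.94 and 4.91 FPKM, and it overlaps a gene on the opposite strand, so its value is uncertain where the counting did not use strand. GRMZM2G003234 had 0.692 and 0.567 FPKM. With GRMZM2G172605, the 5 rows summed to 20.4 FPKM in *ifc* and 21.2 FPKM in WT, so the sum differed far less than its members.

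Among the remaining symbol-free rows above 2 FPKM, 1 was past 1.2-fold. This was GRMZM2G081782, matched to AT2G41835, with 6.64 FPKM in *ifc* and 5.44 FPKM in WT. The rows RefSeq lists as mrpi1 (GRMZM2G139160) and mrpi2 (GRMZM2G105224) had 16.0 and 14.98 FPKM and 10.1 and 10.3 FPKM. Others above 10 FPKM were higher by less than 1.2-fold, at 15.3 and 13.97 FPKM (GRMZM2G002805), 14.6 and 13.3 FPKM (GRMZM2G028766, likewise uncertain for an overlap on the opposite strand) and 13.1 and 12.5 FPKM (GRMZM2G089557). GRMZM2G170520, GRMZM2G086277 and AC233952.1_FG008 were 1.11, 1.03 and 1.104-fold lower.

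The 7 symbol-free rows not above 2 FPKM were all under 1 FPKM in both phenotypes. They are GRMZM2G359589, which has no *Arabidopsis* match, GRMZM2G459614, GRMZM2G140033, GRMZM2G003234, GRMZM2G074793, AF546187.1_FG012 and GRMZM2G114660. The largest ratio among them was 1.47-fold higher, at 0.838 and 0.572 FPKM (GRMZM2G140033). At such levels ratios of this size are common, as 32.4% of the 4663 table rows with a mean under 2 FPKM were past 1.5-fold in either direction.

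In the C2H2 family, 40 of the 63 rows belonged to 16 sets that share an *Arabidopsis* match, 11 of them pairs. In 10 of the 16 sets the copy with the lowest level had a larger ratio, in either direction, than the copy with the highest level. All copies went in the same direction in 7 sets, among them SGR5, ZAT10, REF6 and ZFP2. Neither count was made over all rows that share a match, so it is unknown whether these numbers are unusual. Over all rows the median ratio, in either direction, was 1.28 with a mean under 2 FPKM and 1.14 from 2 to 10 FPKM. A larger ratio in the lowest copy is thus not by itself a trait of C2H2 copies. In the HD2 set, WT levels of the copies were 17.8-fold apart and *ifc* levels 28.9-fold apart, while the ZAT10 copies were 8.14-fold apart in WT and 5.56-fold in *ifc*.

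**Figure D4:**
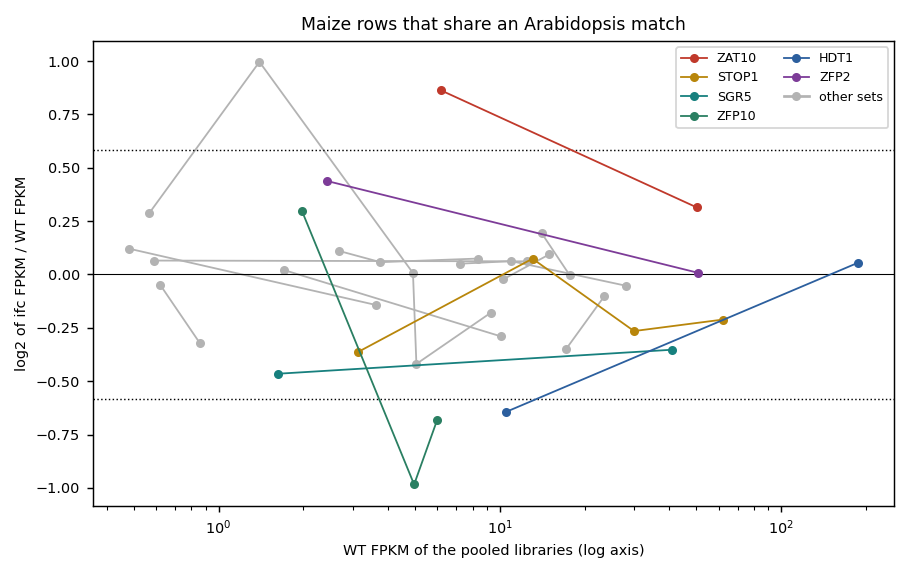
log2 of *ifc* FPKM over WT FPKM against the WT FPKM (log axis) for the 40 C2H2 rows that share an *Arabidopsis* match with another member, with a line joining the rows of each of the 16 sets and dotted lines at 1.5-fold. The HD2 copies (blue) lie at 10.5 and 188 FPKM in WT with only the lower copy past 1.5-fold, and likewise the lower ZAT10 copy (red) has the larger ratio, at the deposited scaling (the same total FPKM moves all points up by 1.13).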

How the data were processed

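RNA of 3 *ifc* and 3 WT ovary libraries, strand-specific and depleted of ribosomal RNA, was sequenced as paired ends by the authors. They trimmed reads with Trimmomatic, aligned them to B73 RefGen_v3 with TopHat2 and kept exonic reads with BEDTools. For the deposited FPKM, the authors ran Cufflinks and Cuffdiff on the reads pooled per phenotype, with multi-read and fragment bias correction and quartile normalization. The deposited ratio (fold), log2, p-value and q-value columns hold the authors' own comparison and were not used.

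Members were all rows of the C2H2 family. Folds came from the FPKM without a pseudocount, and medians from log2 of FPKM + 1. Described in full were members past 1.5-fold, the 10 highest, the highest and most different row of each group of at least 3, all HD2 rows and partner genes past 1.5-fold, and other members are given to account for every row. Members and lists were chosen with earlier results of these data known. Groups follow *Arabidopsis* symbols in the table, leaving out other genes that share the symbols WIP2, HST or MS1. RefSeq names (assembly Zm-B73-REFERENCE-NAM-5.0) were matched by synonym for 40 members. Alternatives were other pseudocounts, FPKM minimums, fold thresholds and scalings. Python 3.11.15, numpy 2.4.6, pandas 2.3.3 and matplotlib 3.10.9 were used, and the computation was tested on simulated data.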

Additional observations from a re-analysis of the deposited data

How the results depend on the processing

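The deposited table has 1 pooled value per phenotype and no counts, so no error stands behind any value here and the depth behind each value is not given. No paired analysis was possible because that table holds no values per library, and no library was left out. Values per library given elsewhere by the study were not used here. The 2 members higher and 4 lower past 1.5-fold stayed at these counts with a pseudocount of 0.1, no FPKM minimum, 1 row per gene identifier, ratios centred on the median of all rows, and the same total without GRMZM2G070931. With a pseudocount of 1 in the folds, 1 was lower. With FPKM above 10, 1 was higher and 1 lower. With a threshold of 2-fold, 0 were higher and 0 lower, and with 1.2-fold, chosen after the values were seen, 6 and 15. With the same total FPKM over all rows, 46 were higher and 0 lower, and the C2H2 median log2 ratio went from -0.055 to 0.86 and the IDD median from -0.27 to 0.66 (the latter added after the values were seen). With the same total without GRMZM2G070931, the medians of the ZFP group and of the rows without a symbol went from 0.0083 to -0.036 and from 0.0057 to -0.032. The WIP median went from -0.24 to -0.37 with a pseudocount of 0.1. Dropping the family label left the IDD median at -0.26, and the same total without GRMZM2G070931 gave -0.30 for the 12 labelled rows. For 19 genes, log2 ratios were recomputed centred and with a pseudocount of 1, and 5 moved by more than 0.1, all with the pseudocount, and 0 turned in sign.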
